A study of Mus musculus with 8 samples.

Results

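The genes described here encode the receptors for glutamate, GABA and glycine, the fast transmitters of the retina. They were chosen by gene symbol alone: the AMPA, NMDA, kainate and delta subunits of the ionotropic glutamate receptors, the metabotropic glutamate receptors except Grm6, and the GABA-A, GABA-B and glycine receptor subunits. The rule found 49 of the 26824 genes in the count table. Of these, 25 were glutamate receptor genes (18 of them ionotropic), 17 were GABA-A subunit genes, 2 were GABA-B genes and 5 were glycine receptor genes. A filter on low counts passed 48 of the 49, and Gabre, with 4 to 11 counts in a library, was not tested. Gabra6 and Gabrp, which also match the rule, were not analysed here.

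Retinal RNA of wild-type mice (WT, 3 libraries) was set against that of Kv8.2 knockout mice, as the labels call them (KO, 5 libraries). Kv8.2 is the protein of Kcnv2, a potassium channel subunit of photoreceptors. Each library held the 2 retinas of 1 untreated mouse aged 1 month, and the labels give neither strain nor the way the allele was made. The libraries are numbered WT 1 to WT 3 and KO 2 to KO 6. The authors state that they set aside 2 KO samples and tested 3 WT against 3 KO samples, but not which, so all 8 libraries entered the comparison.

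Photoreceptors and bipolar cells release glutamate, and their targets read it through different receptors. AMPA and kainate receptors open cation channels at once in horizontal, OFF bipolar, amacrine and ganglion cells, while NMDA receptors add a slower current in amacrine and ganglion cells. Amacrine cells release GABA or glycine, which open chloride channels built from GABA-A or glycine receptor subunits, and the rho subunits form the sustained GABA receptors of bipolar cell terminals. Metabotropic glutamate and GABA-B receptors act through G proteins and tune release.

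Of the 7 receptor genes that were called different, 5 have a promoter in the RefSeq table (assembly GRCm38.p6), as do 33 of the 49 receptor genes. The 250 bases before the start are shown for the 3 called genes whose RefSeq start lies at or before the annotated gene start, because they stand for the directions met below: Gria2 was lower, and Grin1 and Grm2 were higher, in KO. Each lies on the minus strand and is written 5′ to 3′ on that strand. Capitals mark matches on either strand to GGGCGG (the SP1 box), TCAGCACC (the left part of RE1, the element bound by the repressor REST) and GGACAG (its right part).
Gria2, chr3:80802836-80803085: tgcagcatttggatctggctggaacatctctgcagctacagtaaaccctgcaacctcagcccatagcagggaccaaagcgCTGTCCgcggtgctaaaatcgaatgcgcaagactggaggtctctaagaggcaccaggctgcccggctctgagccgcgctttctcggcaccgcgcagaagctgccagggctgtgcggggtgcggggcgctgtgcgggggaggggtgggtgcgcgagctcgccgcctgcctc
Grin1, chr2:25319188-25319437: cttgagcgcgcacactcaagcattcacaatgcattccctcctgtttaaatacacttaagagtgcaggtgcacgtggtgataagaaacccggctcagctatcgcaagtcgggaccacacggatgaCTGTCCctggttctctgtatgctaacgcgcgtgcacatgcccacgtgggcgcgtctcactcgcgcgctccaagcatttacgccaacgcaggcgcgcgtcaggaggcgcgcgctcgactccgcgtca
Grm2, chr9:106656110-106656359: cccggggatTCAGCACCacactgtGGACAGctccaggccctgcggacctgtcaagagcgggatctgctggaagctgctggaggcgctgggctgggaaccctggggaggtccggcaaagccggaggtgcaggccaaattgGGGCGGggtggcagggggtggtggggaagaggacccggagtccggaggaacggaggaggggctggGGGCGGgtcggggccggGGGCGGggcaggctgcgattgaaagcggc
The letters GGACAG or their reverse complement CTGTCC occur once in each of these 3 windows and in those of all 5 called genes that have one. They occur in 17 of the 40 windows of receptor genes (42.5%) and in 18.7% of the 32851 windows in the table. GGGCGG occurs 3 times before Grm2 and not before Gria2 or Grin1. It is found in 21 of the 40 receptor windows (52.5%) and in 32.7% of all windows. TCAGCACC occurs only before Grm2 among the receptor windows, against 1.32% of all windows. The searched CRE (TGACGTCA) and EGR site (GCGTGGGCG) occur in none of the receptor windows, against 1.55% and 0.536% of all windows, and the AP-1 site (TGANTCA) occurs in 2, against 6.75% of all. The receptor windows are richer in G and C, with a median of 59.6% against 52.4%. A match is a run of letters and not a bound site.

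Libraries held 17759146 to 25188870 counts, and 3 counts, taken as the floor of detection, equal 0.130 to 0.164 CPM (the count for each 1e+06 counts, scaled between libraries by the TMM method). Kcnv2 itself was at 519 to 551 CPM in WT and at 398 to 585 CPM in KO. Its log2 fold change was -0.24 (SE 0.14, adjusted p = 0.275 in edgeR's quasi-likelihood test), and no library lacked it, so its level does not check the KO labels, and KO below means only that label. KO 4, KO 5 and KO 6 stood apart from the other libraries. They had scores of 45.4 to 57.7 on the first principal component, which held 39.6% of the variance, and the other 5 libraries had scores of -40.0 to -11.7. The mitochondrial share of counts was 7.09% to 7.92% in WT and lower in KO, at 6.52% in KO 2, 5.23% in KO 3 and 3.03% to 3.70% in the 3 libraries that stood apart. Lens genes took 3.95% of counts in KO 3 and at most 0.114% in any other library. No WT library resembles KO 4 to KO 6, so genotype and what sets these 3 libraries apart cannot be told apart within them. The results below are therefore given over all 8 libraries and, for the called genes and where the values part, also with only KO 2 and KO 3 or only KO 4 to KO 6 set against the same 3 WT libraries.

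Over all libraries, 7 of the 48 tested receptor genes were called at an adjusted p under 0.05, which is 14.6%. The background was 7.58% of the 20167 genes tested. Higher in KO were 6 genes, among them Grin1, Grin2d, Grm2, Grm4 and Gabbr2 with folds of 1.32 to 1.74, and 4.74% of all genes were called higher. Lower in KO was 1 gene, Gria2, by 22.1%, and 2.84% of all genes were called lower. The adjusted p-values of the 6 genes named lay close together and near the threshold, from 0.0301 to 0.0467. A further 12 receptor genes had adjusted p-values of 0.05 to 0.11. In an unadjusted test 20 of the 48 had p under 0.05, against 27.3% of all genes.

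By transmitter, 6 of the 25 glutamate receptor genes (24%) were called, against 7.58% of all genes. Of the 23 tested GABA and glycine receptor genes, 1 was called (4.35%). The median log2 fold change was 0.22 over the glutamate receptor genes, -0.15 over the 16 tested GABA-A genes and 0.00073 over all genes tested. With KO 2 and KO 3 alone the glutamate median was 0.21 and that of the GABA-A genes 0.05, with 10 of the 16 above 0. With KO 4 to KO 6 alone they were 0.28 and -0.40, so the GABA-A median had opposite signs in the 2 sets of KO libraries. The KO libraries lay wholly above WT for 11 receptor genes, against 10.8% of all genes, and wholly below for 3, against 10.1% (20.9% in either direction). The 7 calls did not hold without single libraries. Leaving out any 1 of WT 1, WT 2, WT 3, KO 4, KO 5 or KO 6 left 0 receptor genes called, against 0.636%, 0.646%, 0.955%, 1.84%, 1.94% and 2.68% of all genes, in that order, whereas leaving out KO 2 gave 16, against 13.9% of all genes, and leaving out KO 3 gave 18, against 20%. With library size alone in place of TMM scaling, 6 receptor genes were called, against 6.71% of all genes, of which 2 were higher (2.81% of all) and 4 lower (3.9% of all), and over all genes the split went from 956 higher and 573 lower to 566 higher and 787 lower.

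KO 2 and KO 3 against WT gave 0 receptor genes called in edgeR's test, against 0.891% of all genes. Without adjustment, 13 of the 48 had p under 0.05, against 19.0% of all genes. Gria2, Grin1, Grin2d, Grm2, Grm4 and Gabbr2 kept their direction there, with adjusted p-values of 0.126 to 0.237. KO 4 to KO 6 against WT gave 33 of 48 called, against 42.8% of all genes. Of these, 17 were higher and 16 lower, against 22.3% and 20.5% of all genes. The comparisons share the WT libraries. The value in KO 4 to KO 6 lay below that in KO 2 and KO 3 for 14 of the 16 tested GABA-A genes, 4 of the 5 glycine receptor genes and 12 of the 25 glutamate receptor genes.

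**Figure D1:**
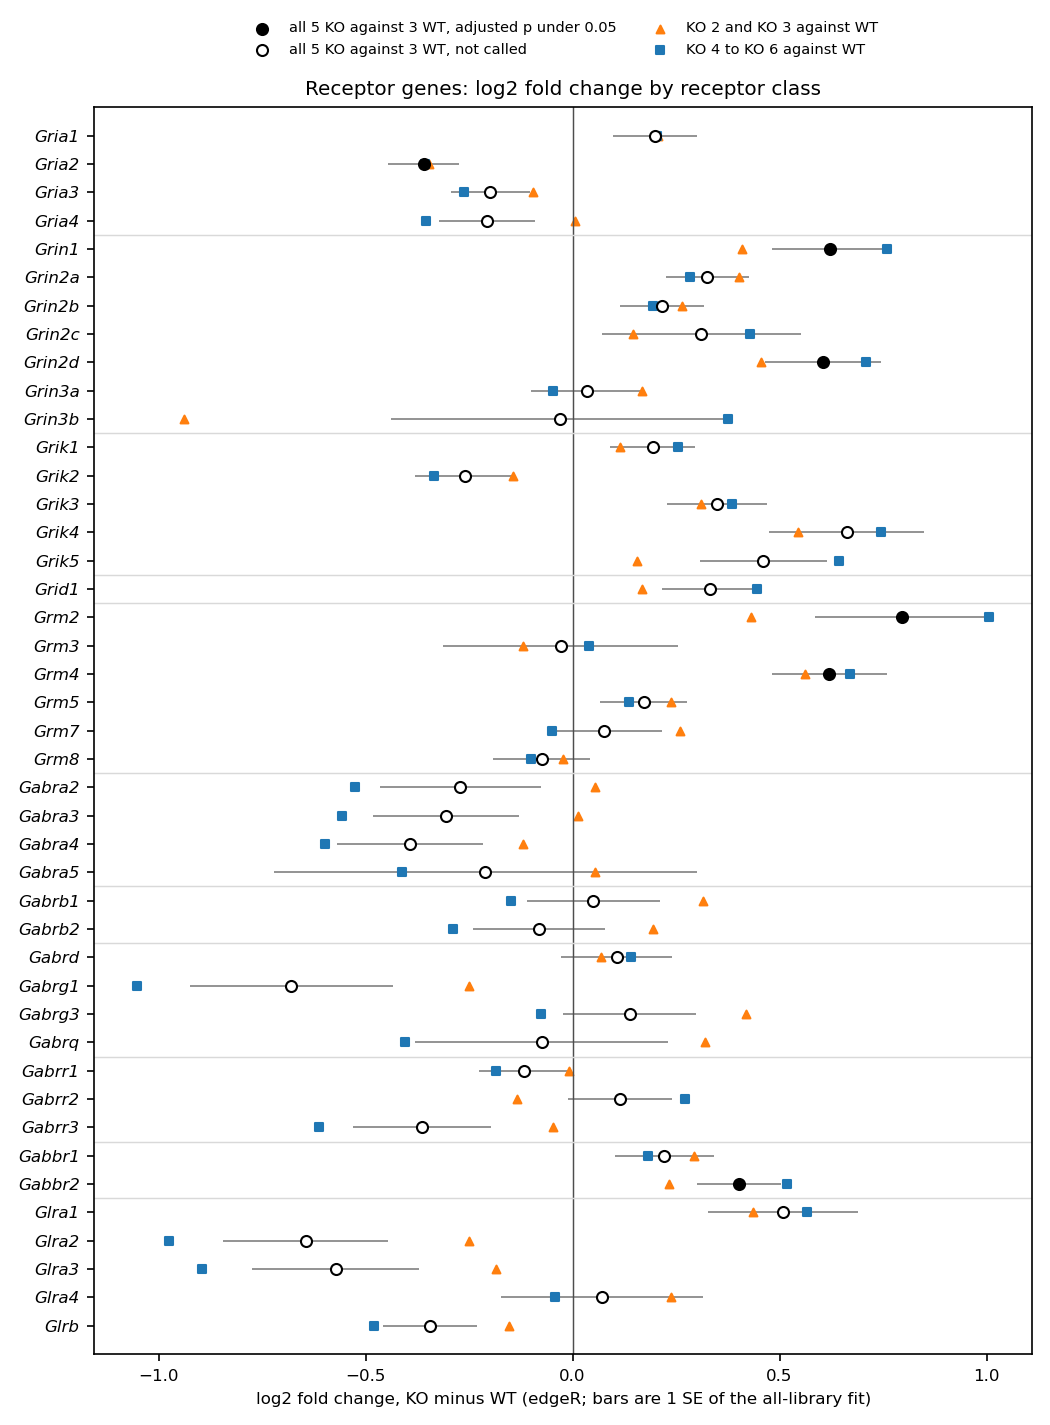
Log2 fold change of tested receptor genes, KO minus WT (horizontal axis), by receptor class (grey lines). Circles are the fit of all 8 libraries with bars of 1 SE (filled where the adjusted p is under 0.05), triangles KO 2 and KO 3 against WT, and squares KO 4 to KO 6 against WT. The 6 filled circles are Gria2, on the left, and Grin1, Grin2d, Grm2, Grm4 and Gabbr2, on the right.

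Among the 4 AMPA receptor genes, which carry most fast excitation, 1 was called, lower, against 2.84% of all genes. Gria2 (ENSMUSG00000033981, chr3:80681450-80802835, minus strand) encodes the subunit that makes AMPA receptors nearly impermeable to calcium. The WT libraries (WT 1 to WT 3, in this order throughout) had 132, 127 and 129.8 CPM, and the KO libraries (KO 2 to KO 6, likewise) 95.6, 108, 111, 92.5 and 97.0 CPM. Every KO library was below every WT library, and KO 2 was as low as KO 5 and KO 6. WT averaged 129 ± 2.51 CPM (SD, n = 3) and KO 101 ± 8.14 CPM (SD, n = 5), a log2 fold change of -0.36 (SE 0.09, adjusted p = 0.036). The log2 fold change was -0.35 in KO 2 and KO 3 (adjusted p = 0.126) and -0.36 in KO 4 to KO 6 (adjusted p = 0.00144). With counts corrected for GC content the value was 0.08 over all libraries and -0.19 (SE 0.09, adjusted p = 0.281) in KO 2 and KO 3.

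Gria4, the AMPA subunit with the highest level per kb of transcript here, was at 89.4, 95.2 and 98.6 CPM in WT and at 98.8, 90.5, 72.8, 74.5 and 72.5 CPM in KO 2 to KO 6. KO 2 and KO 3 lay at the level of the WT libraries and KO 4 to KO 6 below them. The all-library log2 fold change was -0.21 (SE 0.12, adjusted p = 0.275), with 0.0048 in KO 2 and KO 3 and -0.36 in KO 4 to KO 6. Gria3 had a log2 fold change of -0.20 and Gria1 of 0.20, with adjusted p-values of 0.207 and 0.233. Gria3 was at -0.09 in KO 2 and KO 3 and at -0.26 in KO 4 to KO 6, and Gria1 at 0.21 and 0.20. As a share of summed AMPA level per kb, Gria2 was 25.1% to 27.6% in WT and 19.3% to 25.5% in KO. Those ranges overlap, and Gria1 took 18.5% to 18.8% in WT and 19.6% to 25.9% in KO. In whole retina, fewer cells of a type and less RNA per cell cannot be told apart, and this holds for every level below.

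The 7 NMDA receptor genes had 2 called, both higher, against 4.74% of all genes. Grin1 (ENSMUSG00000026959, chr2:25291181-25319187, minus strand) encodes GluN1, the subunit that every NMDA receptor needs. It was at 50.3, 48.2 and 46.1 CPM in WT and at 75.8, 52.2, 81.0, 82.9 and 79.0 CPM in KO 2 to KO 6. KO 3 was only just above WT, while the other 4 KO libraries lay close together. The mean rose from 48.2 ± 2.09 CPM (SD, n = 3) to 74.2 ± 12.6 CPM (SD, n = 5), a log2 fold change of 0.62 (SE 0.14, adjusted p = 0.0301). It was 0.41 in KO 2 and KO 3 (adjusted p = 0.198) and 0.76 in KO 4 to KO 6 (adjusted p = 3.46e-06). Of the 31-base words of Grin1, 23.9% also occur in the opposite-strand gene Grin1os. That gene had 7 to 32 counts in a library, and the strand setting of the counting is not given in the sources used here.

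Grin2d (ENSMUSG00000002771, chr7:45831883-45878378, minus strand) encodes GluN2D, which gives slowly closing channels. It was at 11.4, 8.93 and 11.5 CPM in WT and at 15, 14.1, 16.2, 16.5 and 19.0 CPM in KO 2 to KO 6. All 5 KO libraries were above WT, with a log2 fold change of 0.61 (SE 0.14, adjusted p = 0.0325). It was 0.46 in KO 2 and KO 3 (adjusted p = 0.181) and 0.71 in KO 4 to KO 6 (adjusted p = 0.00059). Of its 31-base words, 10.3% also occur in other genes, and one of these, Gm45441, overlaps it on the opposite strand. Gm45441 had 102 to 194 counts in WT and 279 to 444 in KO, with a log2 fold change of 1.29 (adjusted p = 0.0102), so the reads of the pair may be mixed and the value of Grin2d is uncertain.

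The other NMDA genes were not called. Grin2a, a subunit of mature synapses, was at 21.4 to 24 CPM in WT and 26.1 to 32.2 CPM in KO, without overlap, with a log2 fold change of 0.33 (SE 0.10, adjusted p = 0.0712). Grin2b had a log2 fold change of 0.22 (adjusted p = 0.202) and Grin2c of 0.31 (adjusted p = 0.428), the latter with 0.15 in KO 2 and KO 3 and 0.43 in KO 4 to KO 6. Grin3a and Grin3b, subunits of unusual NMDA receptors, had values of 0.04 and -0.03 over all libraries. In KO 2 and KO 3 they were at 0.17 and -0.94, and in KO 4 to KO 6 at -0.05 and 0.37, with opposite signs for each gene and none called. The summed level of the 7 genes per kb of longest transcript was 18.7 to 19.8 in WT and 21.3 to 29.0 CPM per kb in KO. These ranges do not overlap, and KO 3 was the lowest KO library, as for Grin1. Grin1 made up 56.9% to 60.5% of this sum in WT and 57.2% to 67.6% in KO. With the median transcript length instead, Grin2b and not Grin1 was the highest NMDA gene, so the order within this class depends on the length used.

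**Figure D2:**
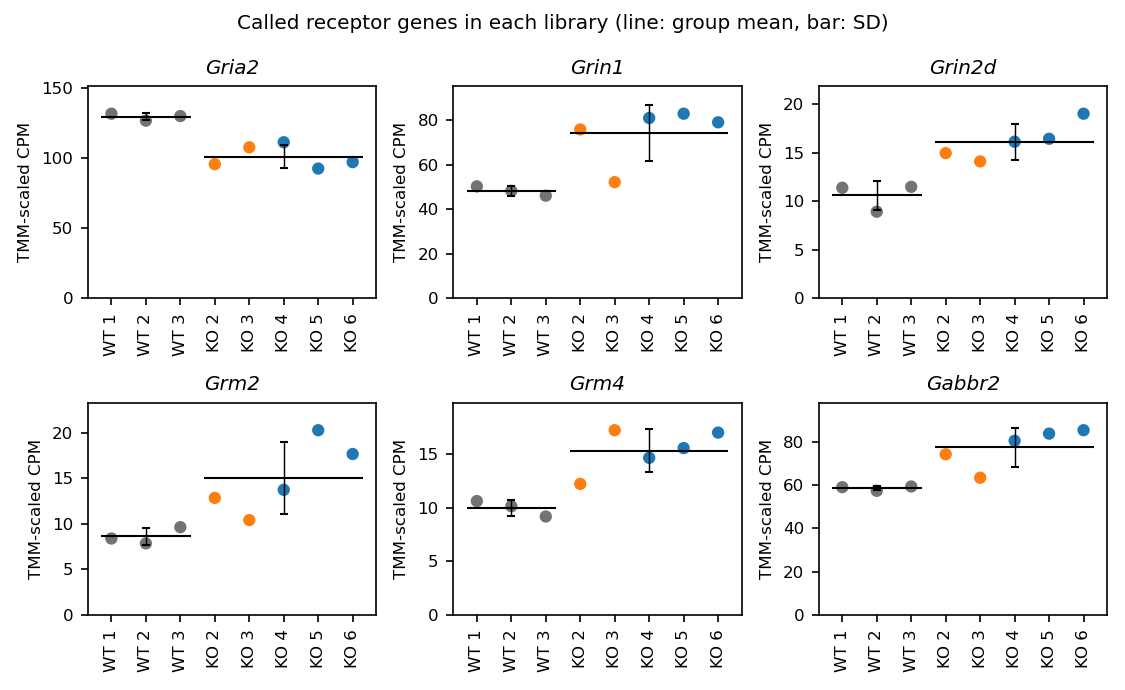
TMM-scaled CPM (vertical axes, from 0) of 6 called receptor genes in each of the 8 libraries (grey WT, orange KO 2 and KO 3, blue KO 4 to KO 6). Lines are group means and bars SD (n = 3 WT, n = 5 KO). No KO library overlaps the WT libraries in any panel, and KO 3 lies nearest to WT for Grin1, Grin2d, Grm2 and Gabbr2.

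None of the 5 kainate receptor genes was called by edgeR over all libraries. At an unadjusted p under 0.05 there were 3, DESeq2 called 3, and limma voom called all 5, against 27.3%, 18.2% and 40.9% of all genes. Grik1, the kainate subunit of OFF bipolar cells and the one with the highest level per kb, was at 79.2, 87.8 and 72.2 CPM in WT and at 93.8, 78.7, 99.4, 99.1 and 84.9 CPM in KO 2 to KO 6. The groups overlap, and the log2 fold change was 0.19 (SE 0.10, adjusted p = 0.252). It was 0.11 in KO 2 and KO 3 and 0.25 in KO 4 to KO 6. Grik4, which joins other kainate subunits, was at 2.36, 2.16 and 2.75 CPM in WT and at 3.52, 3.57, 4.53, 4.29 and 3.33 CPM in KO. All KO libraries were above WT, and the log2 fold change of 0.66 (SE 0.19) had an adjusted p of 0.0575. Grik5, another such partner, had a log2 fold change of 0.46 (adjusted p = 0.0861), with 0.16 in KO 2 and KO 3 and 0.64 in KO 4 to KO 6. Grik3 was at 0.35 (adjusted p = 0.0955), and Grik2 was the only kainate gene below 0, at -0.26 (adjusted p = 0.189), with -0.14 in KO 2 and KO 3 and -0.34 in KO 4 to KO 6.

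The delta subunits bind glycine or D-serine and organise synapses through cerebellins. Grid1 was at 20.1, 19.2 and 20.6 CPM in WT and at 22.1, 22.8, 25.9, 29.9 and 25.2 CPM in KO 2 to KO 6. Every KO library was above WT, and the log2 fold change was 0.33 (SE 0.12, adjusted p = 0.101), with 0.17 in KO 2 and KO 3 and 0.44 in KO 4 to KO 6.

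Of the 7 metabotropic glutamate receptor genes, 3 were called and all were higher, against 4.74% of all genes. Grm2 (ENSMUSG00000023192, chr9:106643095-106656082, minus strand), an inhibitory receptor that lowers transmitter release, was at 8.39, 7.85 and 9.64 CPM in WT. It was at 12.8, 10.4, 13.7, 20.3 and 17.7 CPM in KO 2 to KO 6, all above WT, with KO 3 the lowest and KO 5 the highest. The mean rose from 8.63 ± 0.915 CPM (SD, n = 3) to 15 ± 3.95 CPM (SD, n = 5). The log2 fold change of 0.80 (SE 0.21, adjusted p = 0.0467) was the largest of the called genes named here, and it was 0.43 in KO 2 and KO 3 against 1.01 in KO 4 to KO 6. Of its 31-base words, 8.95% also occur in Gm28111, which overlaps it on the opposite strand, or in Gm20707. Gm28111 was not analysed here.

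Grm4 (ENSMUSG00000063239, chr17:27422387-27521403, minus strand), another inhibitory receptor of nerve terminals, was at 10.6, 10.2 and 9.19 CPM in WT. It was at 12.2, 17.3, 14.7, 15.6 and 17.0 CPM in KO 2 to KO 6. Here KO 3 was the highest library and KO 2 the lowest of the KO libraries. The log2 fold change was 0.62 (SE 0.14, adjusted p = 0.0305), with 0.56 in KO 2 and KO 3 and 0.67 in KO 4 to KO 6.

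The other 4 metabotropic genes overlapped between the groups. Grm8, the one with the highest level per kb, was at 29.2, 32.7 and 32.1 CPM in WT and at 35.3, 26.3, 26.4, 28.4 and 32.3 CPM in KO 2 to KO 6. Its log2 fold change was -0.07 (SE 0.12, adjusted p = 0.724). Grm5, a receptor that signals through calcium release, was at 26.6 to 31.1 CPM in WT and 29.3 to 36.7 CPM in KO, with a log2 fold change of 0.17 (adjusted p = 0.316). Grm7 had 0.08, with 0.26 in KO 2 and KO 3 and -0.05 in KO 4 to KO 6, and Grm3 -0.03, with -0.12 and 0.04. As a share of the summed metabotropic level per kb, Grm8 was 33.6% to 36.6% in WT and 26.8% to 31.2% in KO. Grm2 took 7.20% to 8.59% in WT and 8.81% to 15.8% in KO. These shares do not overlap between the groups, and they were not tested.

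None of the 16 tested GABA-A genes was called in edgeR's quasi-likelihood test over all libraries, where 3 had an unadjusted p under 0.05, against 27.3% of all genes. DESeq2 called 2, Gabrg1 among them, and limma voom 8, against 18.2% and 40.9% of all genes in those tests. The alpha subunits, which help set GABA sensitivity, had a median log2 fold change of -0.27 over all libraries, 0.05 in KO 2 and KO 3 and -0.53 in KO 4 to KO 6. Gabra4 was at 11.6, 13.4 and 10.5 CPM in WT and at 10.6, 11.2, 8.82, 7.16 and 7.29 CPM in KO 2 to KO 6. KO 2 and KO 3 overlapped WT and KO 4 to KO 6 lay below it, with a log2 fold change of -0.39 (SE 0.18, adjusted p = 0.18). It was -0.12 in KO 2 and KO 3 and -0.60 in KO 4 to KO 6. Gabra2 and Gabra3 were also lower in KO 4 to KO 6, with -0.53 and -0.56 in KO 4 to KO 6 against 0.05 and 0.01 in KO 2 and KO 3. Gabra5, at 0.273 to 1.62 CPM, had a log2 fold change of -0.21 (SE 0.51), with 0.05 in KO 2 and KO 3 and -0.41 in KO 4 to KO 6.

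The beta subunits form part of the GABA binding site. Gabrb2 was at 40.2, 37.9 and 46.8 CPM in WT and at 53.0, 42.3, 35, 34.8 and 31.8 CPM in KO. KO 2 was above every WT library and KO 4 to KO 6 below every one, with a log2 fold change of -0.08 (SE 0.16, adjusted p = 0.786). It was 0.19 in KO 2 and KO 3 and -0.29 in KO 4 to KO 6. Gabrb1 had 0.05 (adjusted p = 0.872), with 0.32 in KO 2 and KO 3 (adjusted p = 0.228) and -0.15 in KO 4 to KO 6, so Gabrb1 and Gabrb2 had opposite signs in the 2 sets of KO libraries.

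The gamma subunits place GABA-A receptors at synapses. Gabrg1 had the most negative value of all receptor genes, at 9.98, 11.1 and 13.4 CPM in WT and 8.68, 10.7, 6.30, 5.01 and 5.19 CPM in KO. KO 3 overlapped WT, and the log2 fold change of -0.68 (SE 0.25) had an adjusted p of 0.107. It was -0.25 in KO 2 and KO 3 (adjusted p = 0.479) and -1.05 in KO 4 to KO 6 (adjusted p = 0.000152). Gabrg3, Gabrd, a subunit of receptors outside synapses, and Gabrq had values of 0.14, 0.11 and -0.07. Gabrg3 was at 0.42 in KO 2 and KO 3 (adjusted p = 0.134) and at -0.08 in KO 4 to KO 6, and Gabrq at 0.32 and -0.40. Gabrd was at 0.07 and 0.14. Gabre was near the floor, at 0.174 to 0.523 CPM.

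Of the 3 rho genes, Gabrr1 had the highest level per kb. It was at 83.0, 93.7 and 86.3 CPM in WT and at 99.2, 75.0, 73.1, 80.2 and 76.2 CPM in KO 2 to KO 6. KO 2 was above WT and the other 4 KO libraries below it, and the log2 fold change was -0.12 (SE 0.11, adjusted p = 0.504), with -0.0088 in KO 2 and KO 3 and -0.19 in KO 4 to KO 6. Gabrr3 was at 36.3, 40.9 and 38.8 CPM in WT and at 40.3, 34.6, 26.2, 25.2 and 23.9 CPM in KO. Its log2 fold change was -0.36 (SE 0.17, adjusted p = 0.188), with -0.05 in KO 2 and KO 3 and -0.61 in KO 4 to KO 6. Gabrr2 went the other way in KO 4 to KO 6, at 0.27 (adjusted p = 0.00789), and had -0.13 in KO 2 and KO 3 (adjusted p = 0.506).

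The GABA-B receptor is a pair of the proteins of Gabbr1, which binds GABA, and Gabbr2, which couples to the G protein. Gabbr2 (ENSMUSG00000039809, chr4:46662305-46991873, minus strand) was at 59.1, 57.4 and 59.4 CPM in WT and at 74.3, 63.5, 80.6, 83.9 and 85.5 CPM in KO 2 to KO 6. The WT libraries lay close together, all KO libraries were above them and KO 3 was the nearest. The mean rose from 58.6 ± 1.08 CPM (SD, n = 3) to 77.5 ± 8.95 CPM (SD, n = 5), a log2 fold change of 0.40 (SE 0.10, adjusted p = 0.0414). It was 0.23 in KO 2 and KO 3 (adjusted p = 0.237) and 0.52 in KO 4 to KO 6 (adjusted p = 2.9e-05). Gabbr1 was at 182, 183 and 197 CPM in WT and at 270.3, 189, 209, 215 and 210.0 CPM in KO. KO 2 was well above the other KO libraries, KO 3 lay within WT, and the log2 fold change was 0.22 (SE 0.12, adjusted p = 0.257).

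None of the 5 glycine receptor genes was called by edgeR over all libraries with TMM scaling, while 4 had an unadjusted p under 0.05, DESeq2 called 3 and limma voom 4, against 27.3%, 18.2% and 40.9% of all genes. In edgeR's test of KO 4 to KO 6 against WT, 4 were called, against 42.8% of all genes. With library size alone over all libraries Glra2 and Glrb were called, against 6.71% of all genes. Glra2, a glycine-binding alpha subunit, was at 28.3, 31 and 31.2 CPM in WT and at 25.4, 25.3, 14.9, 15.6 and 15.2 CPM in KO 2 to KO 6. KO 2 and KO 3 lay just below WT and the other 3 KO libraries far below it, with a log2 fold change of -0.64 (SE 0.20, adjusted p = 0.0716). It was -0.25 in KO 2 and KO 3 (adjusted p = 0.24) and -0.97 in KO 4 to KO 6 (adjusted p = 2.74e-06). Glrb, the beta subunit that anchors glycine receptors to gephyrin, was at 68.5, 78.7 and 78.2 CPM in WT and at 68.7, 66.4, 57.9, 51.1 and 51.7 CPM in KO. KO 2 was level with WT 1, and the log2 fold change was -0.34 (SE 0.11, adjusted p = 0.0831), with -0.15 in KO 2 and KO 3 and -0.48 in KO 4 to KO 6. Glra3 followed Glra2, with -0.57 over all libraries (adjusted p = 0.0992), -0.18 in KO 2 and KO 3 and -0.90 in KO 4 to KO 6. Glra1, the classic alpha subunit of fast glycine receptors, was the exception, at 0.51 (adjusted p = 0.102), 0.44 in KO 2 and KO 3 and 0.57 in KO 4 to KO 6. Glra4 was at 1.51 to 2.54 CPM, with 0.07 over all libraries, 0.24 in KO 2 and KO 3 and -0.04 in KO 4 to KO 6.

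Summed over a class and per kb of longest transcript, the levels in the plot by class divide the receptors. The metabotropic sum was 22.5 to 23.8 CPM per kb in WT and 25.1 to 29.4 in KO. Like the NMDA sum, it did not overlap between the groups. The AMPA sum (46 to 49.9 in WT, 39.9 to 47.7 in KO), the kainate sum (40.3 to 41.8 and 40.9 to 55.7), the GABA-B sum (44.9 to 47.9 and 47.1 to 64.4) and the glycine sum (46.5 to 50.6 and 35.8 to 50.1) overlapped. The sum of all 17 GABA-A genes was 195.8 to 212 CPM per kb in WT. It was 183 CPM per kb in KO 3, 227 in KO 2 and 159 to 172 in the other KO libraries. Of the single genes described here, Gabrr1 (38.4 ± 2.40, SD, n = 3) and Gabbr1 (35.7 ± 1.63) had the highest WT levels per kb of longest transcript, with overlapping ranges of mean ± SD. This order depends on the length used. With the median transcript length, the means over all libraries were 130 for Gabbr1, 48.6 for Glrb and 36.5 CPM per kb for Gabrr1.

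**Figure D3:**
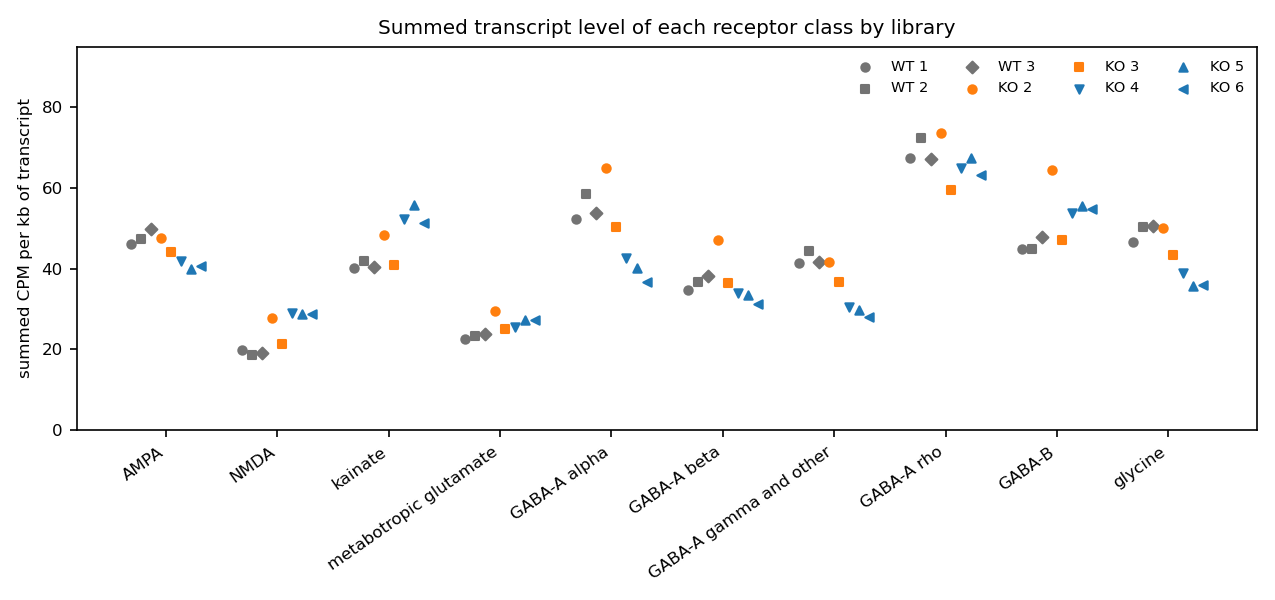
Summed CPM per kb of longest transcript (vertical axis, from 0) of the receptor classes, with delta left out, in each of the 8 libraries (grey WT, orange KO 2 and KO 3, blue KO 4 to KO 6). KO 4 to KO 6 lie above WT for NMDA, kainate, metabotropic glutamate and GABA-B, and below WT for AMPA, GABA-A alpha, GABA-A beta, GABA-A gamma and other, and glycine.

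The fold change of a receptor gene moved with the GC content of its transcript. Among the 15 receptor genes with over 50% GC, 13 had log2 fold changes above 0, with a median of 0.40, and 5 were called higher, where all genes of that GC content had a median of 0.17 and 8.78% called higher. Among the 20 with under 45% GC, 15 were below 0, with a median of -0.27, and Gria2 was the one called, lower, where all such genes had a median of -0.22 and 6.2% called lower. The 13 genes between had a median of 0.08, and 1 of them was called, higher, against a median of -0.03 and 2.86% called higher over all such genes. In KO 2 and KO 3 the medians from high to low GC content were 0.29, 0.21 and -0.02, and in KO 4 to KO 6 they were 0.52, 0.04 and -0.38. The negative median of the genes with under 45% GC was thus close to 0 in KO 2 and KO 3. Spearman's rho between GC content and fold change was 0.79 across the 48 receptor genes and 0.46 across 18028 genes, a description across genes that share libraries and are not independent. It was 0.49 across receptor genes in KO 2 and KO 3 and 0.85 in KO 4 to KO 6.

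With an offset for GC content in each library, 5 receptor genes were called, all higher, against 7.46% of all genes called and 4.52% called higher. The same genes with no correction gave 7, against 8.38%, and an offset for transcript length gave 5, against 7.68%. Grin1 (log2 fold change 0.38, adjusted p = 0.048) and Grm2 (0.57, adjusted p = 0.0497) were among them. Grin2a (0.46, adjusted p = 0.0143) and Grm5 (0.38, adjusted p = 0.0395) joined. Gabbr2 had 0.20 (adjusted p = 0.0571), Grin2d 0.32 (adjusted p = 0.0816) and Grm4 0.37 (adjusted p = 0.144). Gria2, the one gene called lower, went to 0.08 (adjusted p = 0.723), and with the offset in KO 2 and KO 3 it stayed below 0, at -0.19 (adjusted p = 0.281). The median of the 16 GABA-A genes went from -0.15 to -0.05, and that of the 25 glutamate receptor genes from 0.22 to 0.21. The offset was built from all genes, and in KO 2 and KO 3 it left 0 receptor genes called, against 0.939% of all genes.

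**Figure D4:**
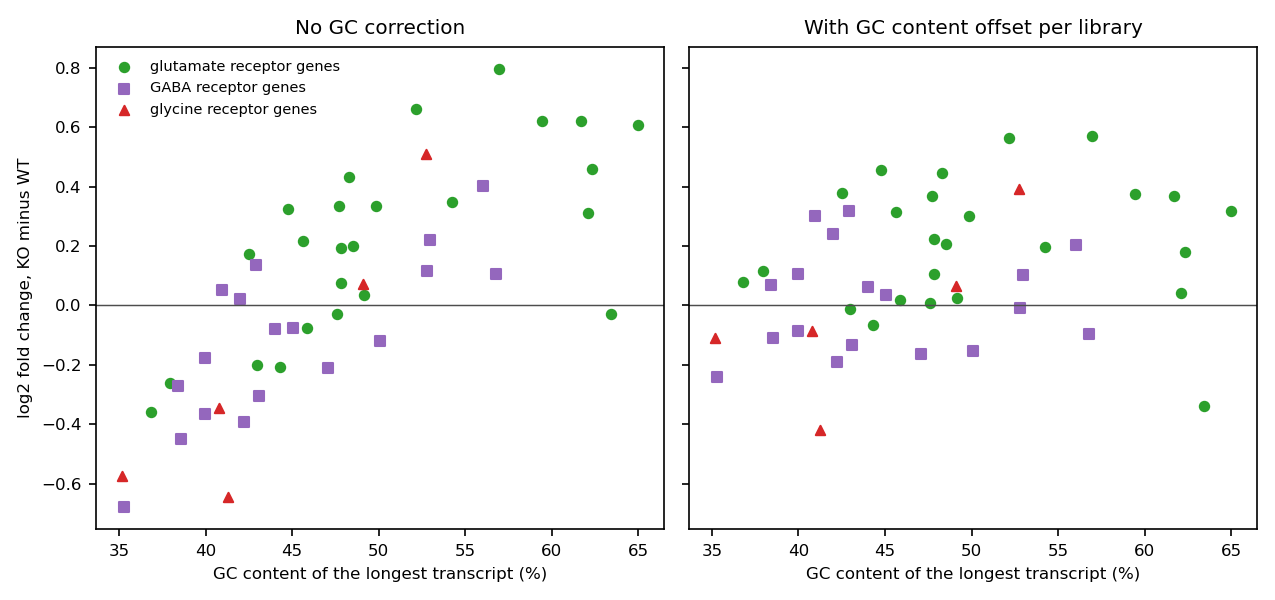
Log2 fold change of the 48 tested receptor genes, KO minus WT (vertical axis), against the GC content of the longest transcript in percent (horizontal axis), without correction (left) and with an offset for GC content per library (right). Spearman's rho is 0.79 on the left and 0.31 on the right.

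The genes that handle these transmitters or hold the receptors were taken from a list of 58, all tested. Of these, 6 were called higher and 0 lower, against 4.74% and 2.84% of all genes, and the median log2 fold change was 0.06 against 0.00073 over all genes. Slc1a2, a glutamate transporter, was at 245 to 247 CPM in WT and 305 to 417 CPM in KO, with a log2 fold change of 0.63 (0.42 in KO 2 and KO 3, 0.76 in KO 4 to KO 6). Slc1a1, a neuronal glutamate transporter, was at 39.0 to 41.4 CPM in WT and 51.9 to 53.9 CPM in KO, with 0.40 (0.39 and 0.41). Slc6a11, a GABA transporter, had 0.56 (0.38 and 0.67). Among auxiliary subunits, Kctd12, which binds the GABA-B receptor, had 0.45. It was at 23.9 to 25.7 CPM in WT and 28.3 to 39.6 CPM in KO, and it was the only listed partner called in KO 2 and KO 3 (0.61, adjusted p = 0.0379, and 0.35 in KO 4 to KO 6). Among scaffolds, Shank1, of the excitatory postsynaptic density, had 0.59 (0.52 and 0.64), and Nlgn3, an adhesion protein of synapses, had 0.67 (0.36 and 0.85). The adjusted p-values of these 6 were 0.0132 to 0.0448. With the offset for GC content, Shank1 had 0.33 (adjusted p = 0.124) and Slc6a11 0.40 (adjusted p = 0.0524), and these were no longer called, while the other 4 were. Pick1, a scaffold that binds AMPA receptors, was called with the offset and not without it (-0.31, adjusted p = 0.0269).

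Marker genes of the retinal cell types were all present, and none was at 0 in every library. The summed level of the 7 amacrine markers was 974 to 1015 CPM in WT and 968 to 1176 CPM in KO, and that of the 6 ganglion cell markers 754 to 831 and 734 to 1001 CPM. Most of the ganglion cell sum was Nefl, at a mean of 555 CPM in WT and at 770 CPM in KO 2. Over all libraries and without the GC offset, none of the amacrine or ganglion cell markers was called. Nor was any of the 4 OFF bipolar markers (Grik1 among them), against 7.58% of all genes. KO 2 and KO 3 alone also gave 0 called in these lists, against 0.891%. In KO 4 to KO 6 alone, Slc6a9, Pou4f1, Pou4f2 and Grik1 were called higher, against 22.3% of all genes. Gad2, Rbpms, Slc17a6, Vsx1 and Cabp5 were called lower there, against 20.5%. In the lists of the other types, single genes were called over all libraries, against 4.74% of all genes called higher and 2.84% lower. Of 4 horizontal cell markers, Calb1 was called lower (log2 fold change -0.49), and their sum was 114 to 118 CPM in WT and 77.3 to 113 CPM in KO. Calb1 averaged 89.6 CPM of that sum in WT and 63.8 CPM in KO, while Lhx1, Onecut1 and Onecut2 had log2 fold changes of 0.07, 0.14 and 0.02, so the lower sum was that of Calb1. Of 6 Müller glia markers, Sox9 and Kcnj10 were called higher. The sum of the 6 was 3077 to 3264 CPM in WT, 3085 to 3524 CPM in KO 3 to KO 6 and 4682 CPM in KO 2. Most of that sum was Glul, which was not called, at a mean of 2439 CPM in WT and at 3655 CPM in KO 2. Sox9 and Kcnj10 averaged 15.5 and 57.8 CPM in WT. The astrocyte and stressed glia marker Gfap was higher, its list of 2 summing to 19.4 to 21.4 CPM in WT and 48.2 to 79.0 CPM in KO, and of 5 microglia markers Csf1r and Tmem119 were higher (22.2 to 25.1 and 27.2 to 39.8 CPM). Of the cone markers, Gnat2 was lower (-0.47) and Pde6c higher (0.51). Arr3 (-0.72, adjusted p = 0.103) and Opn1sw (-0.58) were not called, nor were Opn1mw (0.05) and Cnga3 (0.30). In KO 2 and KO 3 alone Arr3 was called (-1.33, adjusted p = 0.0293), against 0.891% of all genes, and in KO 4 to KO 6 it was at -0.41. Of the ON bipolar markers, Gpr179 was higher (0.48). The rod, endothelial, pigment epithelium and lens lists had 0 genes called over all libraries and 0 in KO 2 and KO 3. In KO 4 to KO 6 alone, Gnat1, Pde6a, Pde6b, Cldn5 and Ttr were called higher, against 22.3% of all genes. Nrl, Cnga1, Rpe65 and lens genes, such as Cryaa (-7.54), were called lower there, against 20.5%. With the offset for GC content, Calb1 went to -0.06 (adjusted p = 0.783), and Gpr179, Csf1r and Tmem119 were not called either (adjusted p-values of 0.0961, 0.0552 and 0.0947). Over all libraries, the rod markers Nrl (-0.42, adjusted p = 0.0235) and Pde6a (0.35, adjusted p = 0.0496) were called with the offset but not without it. So were the ON bipolar marker Pcp2 (-0.37, adjusted p = 0.0446) and the ganglion cell marker Sncg (-0.40, adjusted p = 0.0416). The part of cell composition in the receptor values was not tested.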

How the data were processed

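Bulk RNA sequencing of whole retina gave 3 WT and 5 KO libraries, each 1 mouse per the labels' protocols. The authors deposited a table of expected counts per gene, here whole numbers with totals that differ between libraries, so they were estimates rounded before deposit if Salmon made them. Trim Galore, Salmon 1.10.2, DESeq2 and the build GRCm38 are named in the submitters' processing notes, with no role given. The strand setting is not given in the sources used here. Every gene has at least 16 counts in total, so genes with fewer were removed before deposit, and 106 rows carry no symbol. Gene positions, transcript lengths and GC content come from GENCODE M21 on GRCm38, matched by Ensembl identifier, which held 22121 of the 26824 genes and all 49 receptor genes.

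Genes were kept by edgeR's filterByExpr, scaled by TMM and compared with the quasi-likelihood test of edgeR 4.0.16 in R 4.3.3 on all 8 libraries with no covariate, with Benjamini-Hochberg adjustment over all 20167 genes and a threshold of 0.05. The standard error of a log2 fold change is its size over the square root of F. The steps were tested on simulated data. CPM is the count for each 1e+06 counts of the TMM-scaled library. The offsets for GC content or length came from a lowess curve (span 0.3) of each library against the mean of all libraries. Alternatives were DESeq2 1.42.0, limma 3.58.1 (voom with quality weights), other scalings and filters, the offsets, and fits without each library or each of 10 pairs of KO libraries. Libraries of a group differed by more than sampling noise (chi-square per degree of freedom of 5.57 or more), so each counted as 1 replicate. The detection floor covers counting error only.

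The receptor genes, partner and marker lists, named genes, tests and alternatives were chosen with earlier results of these data known. Values in every library are given for each called receptor gene and, in each class, for the gene with the highest mean level per kb of longest transcript and that with the largest absolute fold change. Some genes are not reported here. Of the partner list, the called genes are named. RefSeq promoters were cut to the 250 bases before the start.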

Additional observations from a re-analysis of the deposited data

Results flagged for a closer look

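Among the 5 KO libraries, 1 library lay far from the other 4 for 3 of the 45 genes looked at (Kcnv2 and the receptor genes reported here, not all 49), where chance gives about 1 in 20, or 2.25. The measure is the gap to the nearest library over the range of the group, with a limit of 0.71. Grin1 in KO 3 was at 52.2 CPM, against 75.8 to 82.9 CPM in the other KO libraries (0.77). KO 2 was the high library for the other 2. Gabrr1 was at 99.2 CPM there, against 73.1 to 80.2 CPM (0.727). Kcnv2 was at 585 CPM, against 398 to 447 CPM (0.738). Grin1 is 1 of the 7 called receptor genes, and the fit without KO 3 called it.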

How the results depend on the processing

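DESeq2's size factors, a robust fit and a stricter filter (over 1 CPM in 3 libraries) each called the same 7 receptor genes. The unfiltered fit called 4, all among the 7. The length offset called 5, all among the 7, the GC offset 5, of which 3 were among them, and library size alone 6, of which 3 were. The number of receptor genes called was 17 with DESeq2 and 31 with limma voom, both including the 7, and over all genes 3066 and 8248 against 1529. KO 2 and KO 3 against WT gave 0 of the receptor genes and 180 genes, with the GC offset, added after seeing the data, 0 and 167, and KO 4 to KO 6 against WT 33 and 8416. Without 1 library the count of genes ran from 132 to 3992 and that of receptor genes from 0 to 18, and without pairs of KO libraries from 118 to 8416 and from 0 to 33. The cause was not tested. Gria2 reversed under the GC offset, from -0.36 to 0.078, but not under that offset in KO 2 and KO 3 (-0.19). The Kcnv2 log2 fold change ran from -0.38 to -0.15 without 1 or 2 libraries, and passed the threshold without KO 2 (-0.35), in KO 4 to KO 6 (-0.38) and under limma voom (-0.36). Replicate numbers 2 and 3 occur in both groups. With the replicate block, the 4 libraries gave 52 genes and 0 receptor genes, without the block 14 and 0, and the crossed pairing, added because same-numbered libraries deviated oppositely (r = -0.19), 527 and 0. Of the 646 values of the 19 receptor genes described by library, 627 kept their sign, and the other changes of sign but that of Gria2, 18, were called in neither fit. Depth limits Gabre, near the floor of 3 counts, and widens the errors of Gabra5 and Grin3b.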
